A study of Homo sapiens with 29 samples.

Results

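The comparison described here set EndoC-βH1 cells kept in medium from cells that make mutant CEL (MUT) against EndoC-βH1 cells kept in control medium (EV) within the batch that the sample labels call Batch-2. Its members were chosen by label alone, as the 3 MUT and the 3 EV libraries of that batch, which makes 6 of the 29 libraries of the series. EndoC-βH1 is a human β-cell line derived from fetal pancreas that makes insulin and carries the SV40 large T antigen, which keeps it dividing. HEK293, a human embryonic kidney line, supplied the medium. HEK293 cells that stably overexpressed a mutant CEL gene (MUT) or the wild-type CEL gene (WT), or carried an empty vector (EV), conditioned EndoC-βH1 medium for 3 hours, and this medium was filtered, brought to equal protein and given to EndoC-βH1 cells with daily renewal for 10 days. The 3 WT libraries of the same batch, and the 13 MUT and EV libraries of batches 1 and 3, are used only to show where the MUT and EV libraries of batch 2 differ from them. The mutation is not named in the labels, and neither the number of HEK293 clones per construct nor whether the 3 libraries of a medium came from separate cultures is given there. A p-value here therefore rests on differences among libraries of 1 medium, and these may be technical.

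CEL encodes carboxyl ester lipase, an enzyme that acinar cells of the pancreas secrete into the gut to break down dietary fat. Mutations that alter its repetitive tail cause MODY8, an inherited disease in which the exocrine pancreas fails and diabetes follows, although β cells make little of the enzyme themselves. The series asked how medium from cells making the mutant protein acts on β cells. β cells make proinsulin in the endoplasmic reticulum (ER), cut and store it in dense-core granules, and release it when glucose metabolism closes potassium channels and opens calcium channels. Secretory load on the ER is sensed by the unfolded protein response, growth factors and calcium act through ERK kinase and immediate early genes, and replication of DNA is driven largely by E2F transcription factors.

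Each of the 6 libraries held between 33.7 and 40.2 M estimated counts. The cells matched their label, since all 13 fixed β-cell markers were measured in every library, with INS at 8753, 9303 and 9043 CPM (counts scaled to library size) in MUT libraries and 11248, 12975 and 12546 CPM in EV libraries. Markers of other cells were sparse. Of 7 acinar markers 6 stayed under 1 CPM in every library, CPA1 being the exception, and 4 were at 0 throughout, of 8 kidney lineage markers that HEK293 cells could carry 6 stayed under 1 CPM and 2 were at 0, and of 9 mesenchymal, endothelial and immune markers 7 stayed under 1 CPM and 2 were at 0. The share of counts in mitochondrially encoded genes was 5.07% ± 0.299 in MUT and 5.03% ± 0.227 in EV libraries (SD, n = 3 each), a difference with p = 0.8 in an exact two-sided permutation test, whose smallest possible p with 3 against 3 is 0.1. In a principal component analysis the leading axis held 52.3% of the variance and had the 3 MUT libraries on one side and the 3 EV libraries on the other.

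Of 20204 genes tested, 9150 (45.3%) passed with edgeR's quasi-likelihood test at an adjusted p under 0.05, of which 4572 were higher in MUT (22.6% of the genes tested) and 4578 lower (22.7%). Most of these changes were small. The median size of a called change was 0.392 on the log2 scale, 3163 of the called genes (34.6%) changed by under 0.3, and 2768 genes (13.7%) passed and changed by over 1.5-fold, with 1147 higher (5.68%) and 1621 lower (8.02%). The 3 MUT libraries lay wholly above the 3 EV libraries for 27.4% of the genes tested and wholly below them for 27.2%, and 98.1% of the called genes did not overlap between the groups. These shares are the background for every count of genes given in what follows. A medium was represented by 1 set of libraries in the batch, and what the medium did cannot be told apart from other differences between the sets. Fold changes are MUT over EV on the log2 scale with their standard error, levels are CPM scaled by TMM, and levels of different genes are not compared because CPM takes no account of length.

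**Figure D1:**
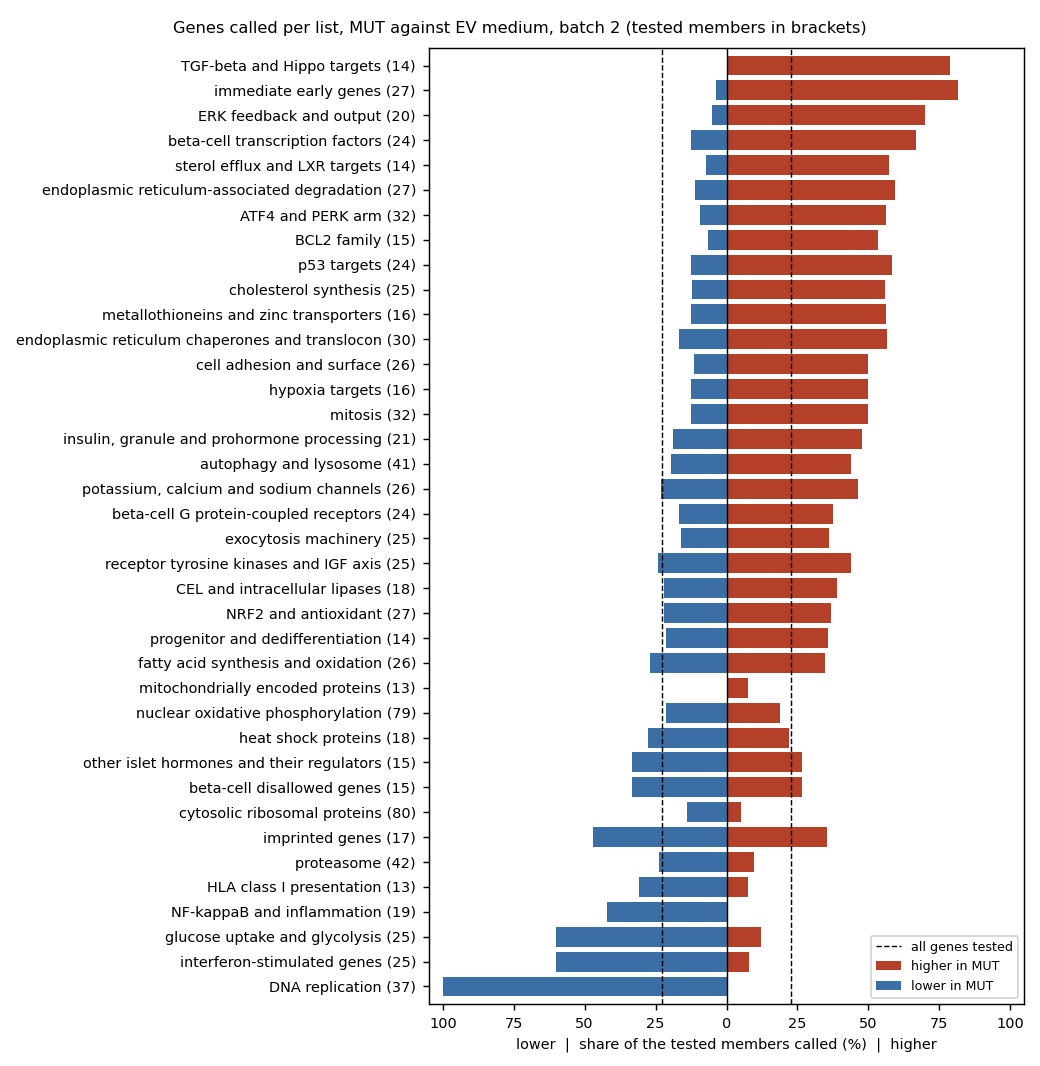
Share of the tested members of each gene list that was called higher (right) or lower (left) in MUT against EV libraries of batch 2, in percent, for the lists with at least 12 tested members. Dashed lines mark the shares over all genes tested, 22.6% higher and 22.7% lower. All 37 DNA replication genes were lower, while TGF-β, immediate early and ERK genes had the highest shares of higher members. The list labelled CEL and intracellular lipases is named CEL and other lipases and esterases in the text.

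Amino acid and other transporters were among the genes with the highest fold changes. The 12 highest and 12 lowest changes were taken among genes without overlap between the groups, so that separation is not a result. SLC38A2 (ENSG00000134294, chromosome 12, 46358189 to 46372867), a sodium-coupled transporter of neutral amino acids, had 216, 200.4 and 208 CPM in MUT libraries and 45.8, 42.9 and 45.1 CPM in EV libraries, a change of 2.22 ± 0.05 with an edgeR adjusted p of 5.3e-09. SLC6A6, the taurine transporter, had 216, 215 and 211 CPM in MUT libraries and 66.4, 67.9 and 67.4 CPM in EV libraries (1.67 ± 0.04). In neither gene did the groups come near each other. SLC35F3, a member of a family of solute carriers, had the highest fold change allowed by the naming rule, at 3.001 ± 0.13, with 17.4, 16.97 and 17.5 CPM in MUT libraries and 2.79, 1.72 and 1.98 CPM in EV libraries. SLC3A1, a subunit of the carrier for cystine and basic amino acids, changed by 1.55 ± 0.10. PTGS2 (ENSG00000073756, chromosome 1, 186671791 to 186680427) encodes cyclooxygenase 2, which makes prostaglandin precursors and is an immediate early gene in many cells. It had 823, 772 and 825 CPM in MUT libraries and 266, 256 and 269 CPM in EV libraries (1.62 ± 0.04, adjusted p 1.1e-08), so every MUT library lay above every EV library. CDHR1, a cadherin-related protein best known from photoreceptors, rose by 2.67 ± 0.07, FBXO2, a ubiquitin ligase subunit that binds glycoproteins, by 2.57 ± 0.11, MARCHF4, a membrane-bound ubiquitin ligase, by 1.79 ± 0.06, ABTB2 by 1.71 ± 0.09, and the sulfotransferase gene GAL3ST4 by 1.58 ± 0.10. The groups did not overlap in any of these genes, as that choice required.

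At the low end stood a lysosomal protein, an exporter and several receptors. CD68 (ENSG00000129226, chromosome 17, 7579467 to 7582113), a lysosomal membrane glycoprotein best known as a macrophage marker, had 36.7, 37.5 and 36.6 CPM in MUT libraries and 125, 133 and 126 CPM in EV libraries (-1.79 ± 0.05, adjusted p 6.7e-09). PTPRC, which marks white blood cells, did not exceed 0.0593 CPM in any of the 6 libraries. SLC47A1, an exporter of organic cations, fell by 2.67 ± 0.11, with 1.995, 1.603 and 1.71 CPM in MUT libraries and 12.3, 11.01 and 10.5 CPM in EV libraries. FER1L5, of the ferlin family of membrane fusion proteins, had 9.89, 11.2 and 11.3 CPM in MUT libraries and 49.9, 55.1 and 50.7 CPM in EV libraries (-2.26 ± 0.07). The groups lay far apart in all 3 genes, which are among the 12 lowest changes taken from genes without overlap. CYSLTR2, a receptor for cysteinyl leukotrienes, changed by -1.96 ± 0.07, the adhesion receptor gene ADGRG4 by -2.01 ± 0.09, the axon guidance receptor gene ROBO3 by -1.83 ± 0.09, and TAS1R3, a subunit of the sweet taste receptor that β cells also carry, by -1.72 ± 0.10. The zinc finger gene ZMAT1 changed by -1.74 ± 0.08 and the long noncoding RNA gene DRAIC by -2.26 ± 0.07. Among the 12 lowest were also TERLR1 at -1.85 ± 0.11, FAM156A at -1.87 ± 0.25 and HSD17B8 at -1.74 ± 0.24. These 3 are uncertain, because TERLR1 is annotated as an antisense RNA, FAM156A has a near-identical copy and HSD17B8 lies in the HLA region, which has alternative sequences, and the estimated counts divide reads between such copies.

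**Figure D2:**
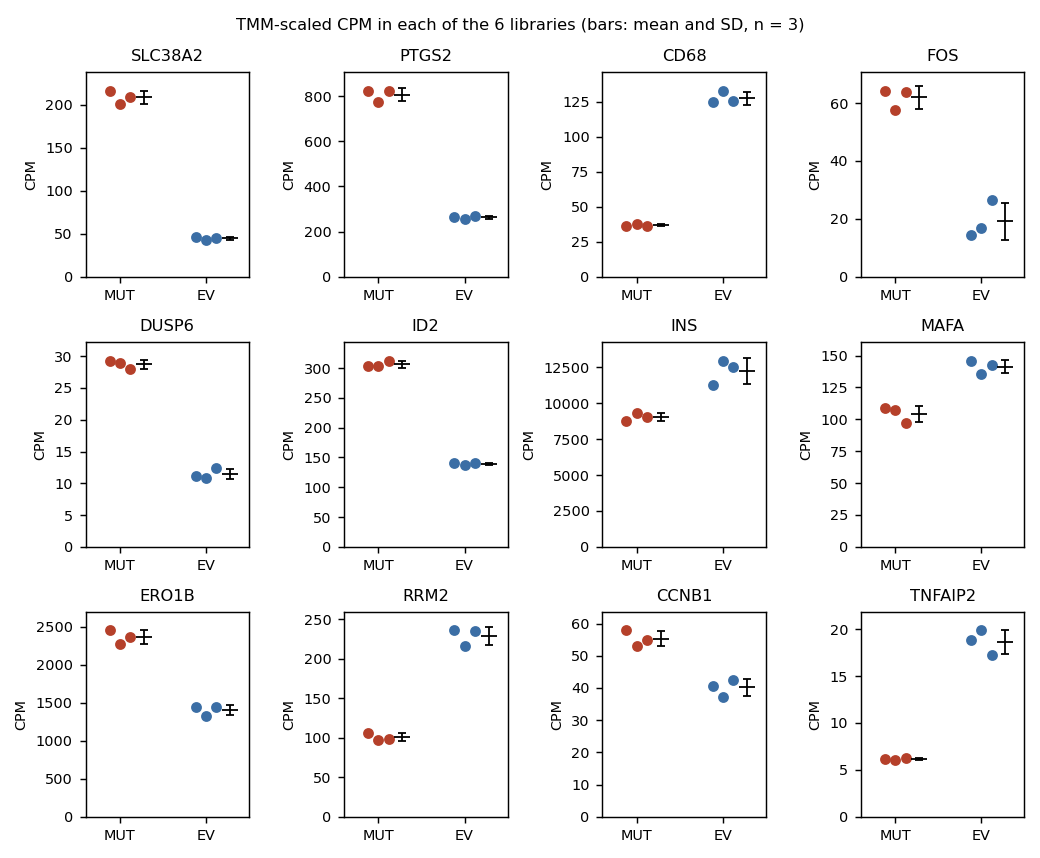
TMM-scaled CPM of 12 genes in each of the 3 MUT libraries (left) and the 3 EV libraries (right), with the mean and SD of each group as black bars. In every panel the MUT libraries lie wholly on one side of the EV libraries, above them for SLC38A2, PTGS2, FOS, DUSP6, ID2, ERO1B and CCNB1 and below them for CD68, INS, MAFA, RRM2 and TNFAIP2. SLC38A2, PTGS2, FOS and CD68 are among the 12 highest or 12 lowest changes, which were taken only from genes so separated.

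Genes of DNA replication were lower in MUT throughout the list, whereas genes of mitosis were not. All 37 tested replication genes fell (100%, against 22.7% of all genes tested), 26 of them by over 1.5-fold, with changes from -1.19 to -0.18 and a median of -0.72, where the median over all genes tested was -0.000554. RRM2 (chromosome 2, 10120698 to 10131419), the ribonucleotide reductase subunit that supplies deoxynucleotides, had 106, 96.8 and 98.9 CPM in MUT libraries and 236, 216 and 235 CPM in EV libraries (-1.19 ± 0.05, adjusted p 2.0e-07). Thymidine kinase TK1 had 8.097, 7.51 and 7.21 CPM in MUT libraries and 15.6, 17.3 and 16.8 CPM in EV libraries (-1.12 ± 0.07). Neither gene overlapped between the groups. The replication licensing factor CDT1 had 27.4, 28.5 and 28.9 CPM in MUT libraries and 51.6, 59.7 and 57.8 CPM in EV libraries (-0.996 ± 0.06), and PCNA, the clamp that holds polymerases on DNA, had 244, 236 and 246 CPM in MUT libraries and 372, 341 and 374 CPM in EV libraries (-0.58 ± 0.05). The S-phase cyclins CCNE1 and CCNE2 changed by -1.06 ± 0.06 and -1.05 ± 0.06, and E2F2, an activating E2F factor that shares identical counts with another entry, by -1.09 ± 0.08. The helicase subunits MCM3, MCM5 and MCM7 changed by -0.61 ± 0.04, -0.72 ± 0.06 and -0.62 ± 0.04. Summed over the list, replication genes held 2736, 2717 and 2748 CPM in MUT libraries and 4278, 4274 and 4346 CPM in EV libraries.

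Among 32 tested mitosis genes 16 rose (50.0%, against 22.6%), 4 fell (12.5%) and none changed by over 1.5-fold, at a median of 0.14. Cyclin B1, CCNB1, had 57.9, 53.2 and 54.8 CPM in MUT libraries and 40.6, 37.3 and 42.6 CPM in EV libraries (0.46 ± 0.06), and the spindle protein ASPM had 40.5, 40.4 and 40.3 CPM in MUT libraries and 29.97, 27.97 and 29.7 CPM in EV libraries (0.47 ± 0.05). Both lay higher in every MUT library. CDC20, which activates the anaphase ligase, rose by 0.38 ± 0.05, the kinase AURKA by 0.36 ± 0.05, cyclin B2, CCNB2, by 0.34 ± 0.05, and the topoisomerase TOP2A by 0.27 ± 0.05. The proliferation marker MKI67 had 49.2, 47.4 and 45.5 CPM in MUT libraries and 49.97, 53.2 and 49.4 CPM in EV libraries. These lay close together, and the change of -0.10 ± 0.05 did not pass (adjusted p 0.13). Against the WT libraries of the same batch the pattern was another one. There 32 of 32 mitosis genes were higher in MUT (against 16.9% of the 19992 genes tested) at a median of 0.89, while 15 of 37 replication genes were higher and 4 lower at a median of 0.12. TOP2A, for example, differed by 1.01 ± 0.04 between MUT and WT, and RRM2 by 0.25 ± 0.04. The comparisons with EV and WT share the MUT libraries.

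**Figure D3:**
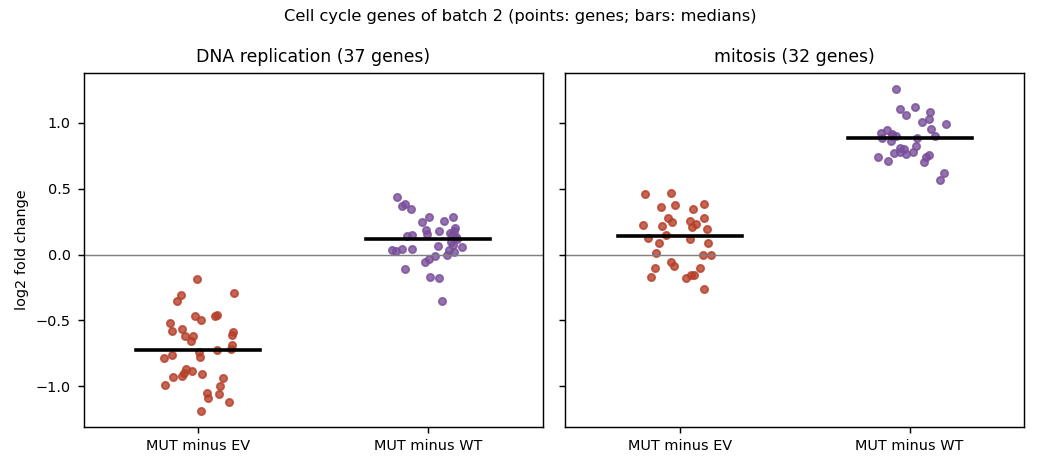
Log2 fold change of each tested gene (points) of DNA replication (left panel, 37 genes) and mitosis (right panel, 32 genes) in MUT minus EV and MUT minus WT libraries of batch 2, with black bars at the medians. Replication genes lay below 0 against EV (median -0.72) and near 0 against WT (0.12), and mitosis genes lay near 0 against EV (0.14) and above it against WT (0.89).

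E2F factors bind promoters of replication genes, and their sites were looked for in the promoters that RefSeq gives for GRCh38.p14, from 250 bases before to 50 after the start of the gene. The words TTTCCCGC and TTTGGCGC were searched on both strands, a choice made after every replication gene was seen to be lower. One or both were present in 18 of the 32 replication genes with a promoter in the table (56.2%), in 2 of 26 mitosis genes (7.69%), in 3.51% of the promoters of genes tested and in 2.31% of all 27305 promoters. The promoters of E2F2, CDT1 and PCNA, genes whose values are given above, are shown to place the site, with the site in capitals (GCGGGAAA and GCGCCAAA are the same words read on the other strand). A match is a description of the sequence and not evidence of binding.
E2F2, chr1:23531184-23531483, minus strand: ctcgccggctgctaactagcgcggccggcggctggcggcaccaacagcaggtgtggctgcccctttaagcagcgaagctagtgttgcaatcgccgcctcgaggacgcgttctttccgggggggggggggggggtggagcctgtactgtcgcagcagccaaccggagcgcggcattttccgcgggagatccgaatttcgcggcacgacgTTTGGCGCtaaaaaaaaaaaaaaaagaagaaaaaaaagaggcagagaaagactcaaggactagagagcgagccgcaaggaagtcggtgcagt
CDT1, chr16:88803539-88803838, plus strand: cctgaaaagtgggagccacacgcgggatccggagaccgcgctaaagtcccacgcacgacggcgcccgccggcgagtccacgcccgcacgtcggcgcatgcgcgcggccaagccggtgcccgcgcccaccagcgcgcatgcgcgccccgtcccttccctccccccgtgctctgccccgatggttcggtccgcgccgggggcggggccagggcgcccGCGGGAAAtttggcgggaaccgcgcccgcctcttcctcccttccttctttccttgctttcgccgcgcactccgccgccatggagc
PCNA, chr20:5126573-5126872, minus strand: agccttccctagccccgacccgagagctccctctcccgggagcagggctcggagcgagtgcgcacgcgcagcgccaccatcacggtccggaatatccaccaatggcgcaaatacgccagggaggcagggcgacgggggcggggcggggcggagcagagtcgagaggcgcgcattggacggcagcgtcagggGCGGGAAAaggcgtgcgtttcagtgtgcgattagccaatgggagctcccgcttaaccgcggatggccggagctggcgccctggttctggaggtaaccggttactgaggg
The sites begin -42, -35 and -59 bases from the start in E2F2, CDT1 and PCNA.

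Immediate early genes, which are transcribed within minutes of growth factor or calcium signals, were mostly higher. Of 27 tested, 22 rose (81.5%, against 22.6%) and 1 fell, with 14 higher by over 1.5-fold and a median of 0.59. FOS (chromosome 14, 75278774 to 75282230), a subunit of the AP-1 transcription factor, had 64.3, 57.5 and 63.97 CPM in MUT libraries and 14.3, 16.9 and 26.5 CPM in EV libraries (1.68 ± 0.17, adjusted p 3.1e-05). EGR1, a zinc finger factor, had 117, 106 and 118 CPM in MUT libraries and 19.3, 28.0 and 54.1 CPM in EV libraries (1.74 ± 0.27, adjusted p 4.6e-04). In both genes the EV libraries spread widely, with EV library 3 highest, yet the lowest MUT library lay above it. The AP-1 genes JUN and JUND rose by 0.64 ± 0.07 and 0.62 ± 0.05. KLF6, a zinc finger factor, rose by 0.70 ± 0.09, while KLF10, a factor induced by TGF-β, fell by 0.46 ± 0.07 and was the member that was lower.

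Genes that report and restrain ERK signalling rose with them. Of 20 tested, 14 were higher (70.0%), 12 of them by over 1.5-fold, and 1 was lower, at a median of 0.74. The phosphatase DUSP6, which inactivates ERK, had 29.3, 28.9 and 27.9 CPM in MUT libraries and 11.2, 10.8 and 12.4 CPM in EV libraries (1.32 ± 0.07, adjusted p 3.6e-07). The nuclear ERK phosphatase DUSP5 had 13.8, 13.4 and 14.4 CPM in MUT libraries and 5.16, 4.69 and 5.74 CPM in EV libraries (1.41 ± 0.09). The ERK-responsive transcription factor ETV4 had 17.9, 20.7 and 18.9 CPM in MUT libraries and 7.39, 6.21 and 6.07 CPM in EV libraries (1.55 ± 0.09). All 3 were over 2-fold higher and did not overlap between groups. The feedback inhibitors SPRY4, SPRED3 and SPRED2 changed by 1.46 ± 0.08, 1.38 ± 0.12 and 0.62 ± 0.05, and DUSP1 by 1.02 ± 0.08. The cyclic AMP response element TGACGTCA, a site for CREB factors, was found on either strand in 2 of 22 immediate early promoters (9.09%), in 3 of 15 ERK list promoters (20.0%) and in 3.16% of the promoters of genes tested (1.98% of all). The promoter of DUSP1, which holds it -125 bases from the start, is shown with the element in capitals.
DUSP1, chr5:172771146-172771445, minus strand: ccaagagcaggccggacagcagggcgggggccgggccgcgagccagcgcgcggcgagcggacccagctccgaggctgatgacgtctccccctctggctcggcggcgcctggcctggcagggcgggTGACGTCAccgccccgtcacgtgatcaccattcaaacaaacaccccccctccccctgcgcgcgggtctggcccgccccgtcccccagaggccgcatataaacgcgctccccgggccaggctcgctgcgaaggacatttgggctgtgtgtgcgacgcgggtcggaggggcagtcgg

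Genes of growth factor receptors and ligands changed in both directions. Of 25 receptor tyrosine kinase and IGF genes 11 rose (44.0%) and 6 fell (24.0%). IGFBP5, which binds insulin-like growth factors, had 343, 328 and 324 CPM in MUT libraries and 132, 135 and 131 CPM in EV libraries (1.32 ± 0.04, adjusted p 2.8e-08), whereas IGFBP2 fell by 0.48 ± 0.06. The receptor genes ALK, at 1.55 ± 0.10, and EPHB2, at 0.75 ± 0.07, rose, as did the ligand PDGFD, at 0.86 ± 0.08, the insulin receptor substrate IRS1, at 0.57 ± 0.09, and the angiogenic ligand VEGFA, at 0.25 ± 0.05. FGFR3, a receptor for fibroblast growth factors, fell by 0.44 ± 0.06. Of 14 TGF-β and Hippo targets 11 rose (78.6%) and 0 fell, at a median of 0.68. ID2 (chromosome 2, 8678845 to 8684453), an inhibitor of basic helix-loop-helix factors, had 303, 303 and 313 CPM in MUT libraries and 140.0, 138 and 140.3 CPM in EV libraries (1.14 ± 0.04, adjusted p 4.6e-08). ID1 had 288, 291 and 283 CPM in MUT libraries and 132, 140.1 and 145 CPM in EV libraries (1.05 ± 0.04). The groups lay far apart in both. The ligand TGFB1 rose by 1.01 ± 0.08, its receptor TGFBR1 by 0.53 ± 0.05, and the inhibitory SMAD6 and SMAD7 by 0.77 ± 0.09 and 0.83 ± 0.05. COL1A1, a collagen gene and mesenchymal marker, had 5.41, 5.96 and 5.15 CPM in MUT libraries and 1.701, 1.87 and 1.51 CPM in EV libraries (1.70 ± 0.13), while its partner COL1A2 did not exceed 0.549 CPM and COL3A1 0.0578 CPM in any of the 6 libraries.

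Insulin mRNA was lower in MUT, while many of the genes that process and store the hormone were higher. INS (chromosome 11, 2159779 to 2161341) had the levels given above and fell by 0.44 ± 0.05 (adjusted p 9.5e-05), with its lowest EV library above its highest MUT library. This holds for batch 2 only, since INS changed by -0.08 in batch 1 and by 0.51, the opposite direction, in batch 3. In bulk RNA, fewer cells of a type and less RNA per cell cannot be told apart. INS also shares sequence with the readthrough gene INS-IGF2, between which the estimated counts divide reads. Of 21 insulin, granule and prohormone processing genes 10 rose (47.6%) and 4 fell (19.0%). SCG2, the granule protein secretogranin II, had 677, 637 and 669 CPM in MUT libraries and 345, 316 and 324 CPM in EV libraries (1.01 ± 0.05, adjusted p 2.5e-07). ERO1B, the oxidase that forms disulfide bonds in proinsulin, had 2448, 2265 and 2365 CPM in MUT libraries and 1442, 1327 and 1440.1 CPM in EV libraries (0.75 ± 0.05). CPE, the carboxypeptidase that trims insulin, had 1973, 1894 and 1935 CPM in MUT libraries and 1477, 1374 and 1459.5 CPM in EV libraries (0.43 ± 0.04). None of the 3 overlapped between groups. The convertases PCSK1 and PCSK2 rose by 0.14 ± 0.04 and 0.25 ± 0.04, VGF, a granule precursor protein, by 0.45 ± 0.06, and QPCT, which cyclizes hormone ends, by 0.42 ± 0.05. Without EV library 3 PCSK1 missed the threshold (0.14, adjusted p 0.0592). Chromogranin A, CHGA, fell by 0.28 ± 0.04, and amylin, IAPP, was at 0.11 ± 0.05 and did not pass (adjusted p 0.11, or 0.0192 with the replicate number as a block, which calls it higher). Set against WT libraries of batch 2, INS differed by 0.04 ± 0.03 and did not pass (adjusted p 0.37), whereas CHGA was lower in MUT there too, at -0.66 ± 0.03. IAPP, which was not called against EV, was lower in MUT than in WT, at -0.77 ± 0.05.

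β-cell transcription factors also went in both directions, with 16 of 24 higher (66.7%) and 3 lower (12.5%) at a median of 0.36. The 3 that fell were MAFA, PDX1 and NKX6-1, all of them factors of mature β cells. MAFA, an activator of the insulin gene, had 109, 107 and 96.9 CPM in MUT libraries and 146, 136 and 142 CPM in EV libraries (-0.44 ± 0.05, adjusted p 8.8e-05). PDX1, which acts on the insulin gene and many other β-cell genes, had 393, 395 and 381 CPM in MUT libraries and 447, 421 and 442 CPM in EV libraries (-0.17 ± 0.04), and NKX6-1 had 167, 179 and 166 CPM in MUT libraries and 189.6, 189 and 189.9 CPM in EV libraries (-0.15 ± 0.04). The groups did not overlap, though NKX6-1 and PDX1 changed by little, and NKX6-1 missed the threshold without MUT library 3 (-0.13, adjusted p 0.0702). Among those that rose, NEUROD1 had 297, 311 and 315 CPM in MUT libraries and 206, 222 and 220.4 CPM in EV libraries (0.51 ± 0.04), and ISL1 had 229, 223 and 228 CPM in MUT libraries and 144, 144 and 147 CPM in EV libraries (0.65 ± 0.04). Every MUT library lay above every EV library in both. PAX4, a factor of early endocrine development, rose by 0.93 ± 0.09, GLIS3 by 0.77 ± 0.05, INSM1 by 0.50 ± 0.05 and PAX6 by 0.35 ± 0.04. Progenitor and dedifferentiation genes were mixed, with 5 of 14 higher and 3 lower. SOX4 rose by 0.69 ± 0.05, SOX11 by 0.40 ± 0.06 and HES6 by 0.48 ± 0.05, and DLK1, a Notch-like ligand gene that is imprinted, fell by 0.62 ± 0.06.

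**Figure D4:**
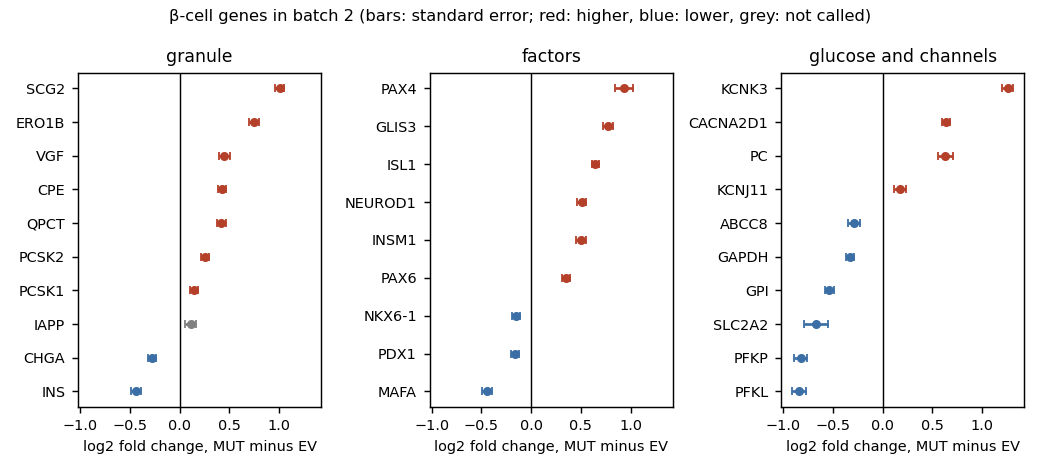
Log2 fold change, MUT minus EV in batch 2, with its standard error for named genes of the granule, of β-cell transcription factors, and of glucose handling and channels. INS, MAFA, PDX1, NKX6-1 and the glycolytic genes lay below 0 and the processing enzymes and most factors above it, and IAPP was not called.

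Glycolytic genes were mostly lower. Of 25 genes of glucose uptake and glycolysis 15 fell (60.0%, against 22.7%) and 3 rose (12.0%), at a median of -0.19. PFKL and PFKP encode forms of phosphofructokinase, the enzyme that commits sugar to glycolysis. PFKL had 138, 156 and 135 CPM in MUT libraries and 239.5, 279 and 249.8 CPM in EV libraries (-0.84 ± 0.07, adjusted p 7.0e-06), and PFKP fell by 0.83 ± 0.07. GPI changed by -0.54 ± 0.04, GAPDH by -0.33 ± 0.04 and ENO1 by -0.22 ± 0.04. SLC2A2, the glucose transporter GLUT2, had 3.33, 2.601 and 3.29 CPM in MUT libraries and 4.66, 5.06 and 4.99 CPM in EV libraries (-0.68 ± 0.12). Its MUT libraries lay below its EV libraries. PC, the pyruvate carboxylase that refills the citric acid cycle, rose instead, by 0.63 ± 0.08, PDK1, which holds pyruvate back from mitochondria, fell by 0.84 ± 0.08, and PKM was at 0.06 ± 0.04 and did not pass. The lactate exporter SLC16A3 fell by 0.43 ± 0.08. Of 15 genes that β cells normally keep low 4 rose and 5 fell, with the transcriptional regulators MAF at 0.57 ± 0.05 and LMO4 at 0.80 ± 0.05 higher and SMAD3, at -0.35 ± 0.07, and the antibody receptor gene FCGRT, at -0.62 ± 0.06, lower.

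Channel and exocytosis genes changed in both directions. Of 26 potassium, calcium and sodium channel genes 12 rose (46.2%) and 6 fell (23.1%). KCNK3, a background potassium channel, had 75.5, 76.6 and 68.3 CPM in MUT libraries and 29.9, 30.7 and 31.4 CPM in EV libraries (1.26 ± 0.06, adjusted p 2.0e-07). The subunits of the ATP-sensitive potassium channel diverged, with ABCC8 at -0.29 ± 0.06 and KCNJ11 at 0.18 ± 0.06. KCNJ11 missed the threshold without MUT library 2 or 3 or EV library 1 or 3, at adjusted p of 0.102, 0.0646, 0.131 and 0.0712, and with scaling to library totals (0.15, adjusted p 0.0607). The calcium channel subunit CACNA2D1 rose by 0.64 ± 0.04, and of the calcium-activated cation channels TRPM5 rose by 1.01 ± 0.10 and TRPM4 fell by 0.69 ± 0.08. Of 25 exocytosis genes 9 rose (36%) and 4 fell (16.0%). CPLX1, a clamp on the fusion machinery, had 48.6, 45.6 and 44.1 CPM in MUT libraries and 21.8, 21.5 and 22.3 CPM in EV libraries (1.07 ± 0.05), which put every MUT library near 2-fold above the EV libraries. UNC13A, which primes vesicles, rose by 0.70 ± 0.06, and the synaptotagmins SYT5, SYT11 and SYT13 by 0.67 ± 0.06, 0.60 ± 0.04 and 0.54 ± 0.05. CADPS, which acts before fusion of dense-core granules, rose by 0.56 ± 0.04. Of 24 receptors coupled to G proteins 9 rose (37.5%) and 4 fell (16.7%), with the incretin receptors GIPR at 0.44 ± 0.06 and GLP1R at 0.33 ± 0.08, the somatostatin receptor SSTR1 at 0.58 ± 0.04, the fatty acid receptor FFAR4 at -0.61 ± 0.07 and the melanocortin receptor MC1R at -0.77 ± 0.06. FFAR1, the main fatty acid receptor of β cells, had 244, 266 and 238 CPM in MUT libraries and 246, 258 and 254 CPM in EV libraries and did not pass (-0.02 ± 0.05).

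Other islet hormones were mixed, with 4 of 15 genes higher and 5 lower. Somatostatin, SST, had 161, 164 and 165 CPM in MUT libraries and 142, 149.9 and 147 CPM in EV libraries (0.16 ± 0.04), urocortin 3, UCN3, a hormone of mature β cells, rose by 0.43 ± 0.04, and transthyretin, TTR, fell by 0.18 ± 0.04. Glucagon, GCG, was under 1 CPM throughout, with 0.173, 0.0788 and 0.126 CPM in MUT libraries and 0.557, 0.374 and 0.527 CPM in EV libraries (-1.94 ± 0.40). IRX2, a gene of glucagon cells, rose by 0.68 ± 0.06, and FEV, a serotonergic factor, by 1.28 ± 0.11. Of 5 tested acinar markers 1 rose and 1 fell, of 9 duct markers 3 rose and 3 fell, including the keratin KRT19 at -0.51 ± 0.06, of 5 mesenchymal, endothelial and immune markers 1 rose and 1 fell, and of 6 kidney lineage and posterior HOX genes 4 rose and 1 fell, with PAX8 at -0.64 ± 0.10. Summed, the kidney genes held 32.8, 33.3 and 34.1 CPM in MUT libraries and 30.3, 29.1 and 30.9 CPM in EV libraries. The mesenchymal, endothelial and immune genes held 44.4, 45.9 and 43.2 CPM in MUT libraries and 128, 138 and 129.7 CPM in EV libraries, most of it CD68, while LUM and VWF were at 0. Whether cells or RNA of another type took part in these values was not tested.

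ER folding and quality control genes were higher in MUT by small steps. Of 30 chaperone and translocon genes 17 rose (56.7%, against 22.6%) and 5 fell (16.7%), none by over 1.5-fold, at a median of 0.19. HSPA5 (chromosome 9, 125234853 to 125241330), the chaperone BiP, had 891, 857 and 886 CPM in MUT libraries and 779, 754 and 772 CPM in EV libraries (0.19 ± 0.04, adjusted p 0.002). HSP90B1, its partner GRP94, had 1652, 1552 and 1664 CPM in MUT libraries and 1416, 1287 and 1398 CPM in EV libraries (0.25 ± 0.05), and the secreted stress factor MANF had 123, 123 and 129 CPM in MUT libraries and 98.3, 91.6 and 97.6 CPM in EV libraries (0.38 ± 0.04). The groups did not overlap in these genes, but the differences were small beside those of the ERK genes. DNAJB9, a cochaperone of BiP, rose by 0.41 ± 0.06 and SSR1, of the translocon, by 0.39 ± 0.04. Other targets of the same response went down. CRELD2, a folding factor, had 35.7, 35.9 and 34.4 CPM in MUT libraries and 48.3, 55.4 and 48.4 CPM in EV libraries (-0.52 ± 0.06), SDF2L1, a cochaperone, changed by -0.47 ± 0.05, and calreticulin, CALR, by -0.26 ± 0.04. XBP1, the factor of the IRE1 arm, had 179, 157 and 167 CPM in MUT libraries and 166, 159 and 169 CPM in EV libraries, with overlapping groups, and did not pass (0.03 ± 0.05).

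The ER stress element, which is CCAAT and CCACG with any 9 bases between them, a site through which ATF6 acts, was searched in the same promoter window on both strands. It was present in 6 of 29 chaperone promoters (20.7%), in 0.11% of the promoters of genes tested and in 0.0806% of all promoters. It was found in 2 of the 17 chaperone genes that rose and in 2 of the 5 that fell, so its holders were found on both sides. A promoter of each kind is shown, with the fixed letters of the element in capitals, HSPA5 from the genes that rose and CRELD2 from those that fell.
HSPA5, chr9:125241294-125241593, minus strand: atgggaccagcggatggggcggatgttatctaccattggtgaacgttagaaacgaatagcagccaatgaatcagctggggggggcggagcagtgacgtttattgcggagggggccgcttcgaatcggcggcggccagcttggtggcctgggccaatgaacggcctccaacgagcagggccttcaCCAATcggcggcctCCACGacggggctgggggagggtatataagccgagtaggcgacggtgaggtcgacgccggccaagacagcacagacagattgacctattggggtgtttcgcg
CRELD2, chr22:49918384-49918683, plus strand: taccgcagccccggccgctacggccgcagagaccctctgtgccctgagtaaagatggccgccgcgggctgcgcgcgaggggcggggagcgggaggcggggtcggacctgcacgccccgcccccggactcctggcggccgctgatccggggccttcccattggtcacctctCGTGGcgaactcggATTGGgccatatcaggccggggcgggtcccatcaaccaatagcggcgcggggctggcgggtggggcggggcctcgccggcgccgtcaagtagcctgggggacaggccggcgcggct
The element begins -66 bases from the start in HSPA5 and -80 in CRELD2, where it is read on the other strand.

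Of 27 genes of ER-associated degradation, which return misfolded proteins to the cytosol, 16 rose (59.3%) and 3 fell (11.1%), at a median of 0.17. The membrane scaffold AUP1 rose by 0.43 ± 0.04, the mannosidase EDEM3 by 0.37 ± 0.05, the ligase adaptor SEL1L by 0.34 ± 0.05, HERPUD1 by 0.29 ± 0.04 and the lectin ERLEC1 by 0.32 ± 0.05. DERL3, a member of the derlin channel family, went the other way, with 4.48, 6.25 and 5.08 CPM in MUT libraries and 12.3, 11.99 and 11.04 CPM in EV libraries (-1.16 ± 0.11, adjusted p 2.8e-05).

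In the ATF4 and PERK arm, which answers ER stress and shortage of amino acids, 18 of 32 genes rose (56.2%) and 3 fell (9.38%), 6 and 1 of them by over 1.5-fold, at a median of 0.17. SLC38A2, described above, was the member with the highest change. SLC7A5, a carrier of large amino acids, had 17.96, 18.6 and 17.01 CPM in MUT libraries and 9.88, 10.3 and 10.5 CPM in EV libraries (0.80 ± 0.07), DDIT4, an inhibitor of mTOR, had 19.4, 19.5 and 19.2 CPM in MUT libraries and 11.1, 10.9 and 11.01 CPM in EV libraries (0.81 ± 0.06), and TRIB3, a pseudokinase that restrains the arm, had 97.2, 100.5 and 93.7 CPM in MUT libraries and 65.8, 70.9 and 68.5 CPM in EV libraries (0.51 ± 0.05). Each was higher in all MUT libraries. ATF4 itself rose by 0.17 ± 0.04, DDIT3, the death-associated factor CHOP, was at 0.12 ± 0.07 and did not pass (adjusted p 0.18), and PYCR1, of proline synthesis, fell by 0.65 ± 0.05. Against WT libraries most of this list was lower in MUT, with 20 of 32 lower (against 17.7% of genes tested there) and 2 higher at a median of -0.32. TRIB3 differed by -0.79 ± 0.04, SLC7A5 by -1.03 ± 0.06 and DDIT4 by -0.88 ± 0.05 in that comparison, while SLC38A2 was higher in MUT, at 1.21 ± 0.06.

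Genes of the p53 pathway and of apoptosis were more often higher than lower. Of 24 p53 genes 14 rose (58.3%) and 3 fell (12.5%). CDKN1A, the cell cycle inhibitor p21, had 106, 100.3 and 89.2 CPM in MUT libraries and 59.9, 62.4 and 59.6 CPM in EV libraries (0.70 ± 0.06), and TP53INP1 had 74.2, 68.1 and 74.9 CPM in MUT libraries and 39.9, 38.95 and 39.5 CPM in EV libraries (0.88 ± 0.05). DDB2, of DNA repair, was lower, at -0.46 ± 0.05. Of 15 BCL2 family genes 8 rose (53.3%) and 1 fell. The proapoptotic BMF had 26.3, 26.5 and 25.1 CPM in MUT libraries and 11.6, 11.7 and 11.7 CPM in EV libraries (1.16 ± 0.06, adjusted p 3.6e-07), and PMAIP1, the protein NOXA, had 88.5, 87.2 and 84.9 CPM in MUT libraries and 55.3, 51.98 and 56.7 CPM in EV libraries (0.67 ± 0.05). The antiapoptotic MCL1 and BCL2L1 rose too, by 0.34 ± 0.05 and 0.18 ± 0.04, and proapoptotic BID by 0.40 ± 0.05.

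Among 27 NRF2 and antioxidant genes 10 rose (37%) and 6 fell (22.2%), which is close to the 22.7% of all genes that fell. GPX2 (chromosome 14, 64939152 to 64942905), a glutathione peroxidase, had 10.6, 9.75 and 11.2 CPM in MUT libraries and 1.96, 2.41 and 2.38 CPM in EV libraries (2.22 ± 0.11, adjusted p 3.6e-07). SRXN1, which restores peroxiredoxins, had 27.7, 26.2 and 25.3 CPM in MUT libraries and 15.5, 15.4 and 15.6 CPM in EV libraries (0.77 ± 0.06). NQO1, a quinone reductase and a standard NRF2 target, had 12.95, 13.4 and 12.6 CPM in MUT libraries and 23.1, 22.5 and 21.9 CPM in EV libraries (-0.79 ± 0.06), so these NRF2 targets moved in opposite directions. GPX4 rose by 0.27 ± 0.05 and GPX3 by 0.58 ± 0.11, while TXN, thioredoxin, fell by 0.38 ± 0.06. The antioxidant response element TGACNNNGC, whose letters TGAC it shares with the cyclic AMP response element, was present on either strand in 5 of 21 promoters of the list (23.8%), against 15.1% of the promoters of genes tested and 13.6% of all. GPX2 holds it -122 bases from the start, as shown in capitals.
GPX2, chr14:64942696-64942995, minus strand: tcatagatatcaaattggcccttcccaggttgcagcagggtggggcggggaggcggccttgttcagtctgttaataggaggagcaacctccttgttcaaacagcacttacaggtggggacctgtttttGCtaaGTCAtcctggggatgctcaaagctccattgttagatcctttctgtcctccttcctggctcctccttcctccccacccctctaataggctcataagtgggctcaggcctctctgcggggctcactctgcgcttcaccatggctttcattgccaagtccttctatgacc

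Of 41 autophagy and lysosome genes 18 rose (43.9%) and 8 fell (19.5%). The lysosomal channel MCOLN1 rose by 0.68 ± 0.06, the protease ATG4B by 0.50 ± 0.04 and ATG9A by 0.37 ± 0.04, while the lysosomal enzyme GAA fell by 0.44 ± 0.07. Of 42 proteasome genes 4 rose (9.52%) and 10 fell (23.8%), and of 18 heat shock genes 4 rose and 5 fell, with HSPA8, the constitutive HSP70, at -0.37 ± 0.04 and DNAJB6 at 0.45 ± 0.05. Of 79 nuclear genes of oxidative phosphorylation 15 rose (19.0%) and 17 fell (21.5%), of 80 cytosolic ribosomal protein genes 4 rose and 11 fell, and of 13 mitochondrially encoded genes 1 rose, MT-CO3 at 0.19 ± 0.05, and 0 fell. In the last 5 of these lists the share of higher members was under the 22.6% of all genes. MT-CO3 missed the threshold without MUT library 3 or EV library 3, at adjusted p of 0.0671 and 0.0918.

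Cholesterol synthesis genes were higher in MUT. Of 25 tested 14 rose (56.0%) and 3 fell (12.0%), at a median of 0.20. LSS, which closes the sterol rings, had 449.9, 511 and 469 CPM in MUT libraries and 308, 356 and 324 CPM in EV libraries (0.53 ± 0.06, adjusted p 7.9e-05). STARD4, a sterol carrier, rose by 0.59 ± 0.05, SC5D by 0.53 ± 0.05 and INSIG1, which holds the sterol sensor in the ER, by 0.45 ± 0.05, while the synthase HMGCS1 changed by -0.20 ± 0.05 and the sterol reductase TM7SF2 by -0.72 ± 0.05. Of 14 sterol efflux and LXR genes 8 rose (57.1%) and 1 fell. SCD, the desaturase that makes monounsaturated fatty acids, had 3122, 3013 and 2981 CPM in MUT libraries and 2024, 2007 and 1988 CPM in EV libraries (0.60 ± 0.04), a clear separation of the groups at a high level. ABCG1, a sterol exporter, rose by 0.30 ± 0.07 and SREBF1, the lipogenic factor, by 0.33 ± 0.06. Of 26 fatty acid genes 9 rose and 7 fell, with FADS2 at 0.36 ± 0.05 and ELOVL5 at 0.36 ± 0.05 higher and DGAT2 at -0.40 ± 0.07 lower.

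CEL (chromosome 9, 133061978 to 133071861), the gene expressed in the HEK293 cells, was itself weakly expressed in the treated β cells, with 4.19, 3.81 and 4.15 CPM in MUT libraries and 2.96, 4.08 and 3.36 CPM in EV libraries. The groups overlapped, and the change of 0.22 ± 0.13 did not pass (edgeR adjusted p 0.2), although limma voom called it (adjusted p 0.0392). Of 18 genes of CEL and other lipases and esterases 7 rose (38.9%) and 4 fell (22.2%). Hepatic lipase, LIPC, had 36.5, 37.97 and 38.8 CPM in MUT libraries and 24.1, 23.6 and 22.98 CPM in EV libraries (0.68 ± 0.05), the neuropathy-associated esterase PNPLA6 rose by 0.43 ± 0.07 and endothelial lipase, LIPG, by 0.39 ± 0.08. ABHD6, a monoacylglycerol lipase, rose by 0.40 ± 0.08, and the related ABHD12 fell by 0.21 ± 0.04.

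Interferon-stimulated genes were lower. Of 25 tested 15 fell (60.0%, against 22.7%) and 2 rose (8.00%), 9 of those that fell by over 1.5-fold, at a median of -0.37. OAS3, which senses double-stranded RNA, had 42.97, 41.1 and 38.5 CPM in MUT libraries and 80.4, 89.2 and 77.4 CPM in EV libraries (-1.01 ± 0.06, adjusted p 1.5e-06), and IFI35 had 7.55, 9.56 and 9.07 CPM in MUT libraries and 18.04, 19.4 and 17.2 CPM in EV libraries (-1.06 ± 0.09). RSAD2, the antiviral protein viperin, had 4.8, 4.49 and 5.43 CPM in MUT libraries and 10.5, 9.03 and 9.63 CPM in EV libraries (-0.99 ± 0.10). All 3 were near 2-fold lower, with no overlap between the groups. OAS1 changed by -0.79 ± 0.06, and the neighbours PARP9 and DTX3L, whose annotated ends overlap, by -0.65 ± 0.07 and -0.80 ± 0.08. Of 19 NF-κB and inflammation genes 8 fell (42.1%) and 0 rose. TNFAIP2 had 6.16, 6.04 and 6.31 CPM in MUT libraries and 18.8, 19.9 and 17.3 CPM in EV libraries (-1.59 ± 0.08, adjusted p 3.1e-07), the inhibitor TNIP1 changed by -0.45 ± 0.05, the cytokine signalling inhibitor CISH by -0.69 ± 0.08, TXNIP, which restrains glucose uptake, by -0.23 ± 0.05, and NFKBIA by -0.18 ± 0.04. Of 13 genes of HLA class I presentation 4 fell and 1 rose, counts that are uncertain where HLA genes share sequence. B2M, the light chain of class I molecules, was the one that rose, with 721, 690.1 and 725 CPM in MUT libraries and 557, 496 and 573 CPM in EV libraries (0.39 ± 0.05), while the immunoproteasome subunit PSMB10 fell by 1.13 ± 0.11. Against WT libraries 20 of 24 tested interferon genes and 12 of 19 NF-κB genes were lower in MUT, and 11 of 13 HLA genes were, among them B2M at -0.98 ± 0.03, which was the opposite of its direction against EV.

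Among imprinted genes 8 of 17 fell (47.1%), 6 of them by over 1.5-fold, and 6 rose (35.3%). IGF2 (chromosome 11, 2129112 to 2149603), the fetal growth factor, had 819.8, 895 and 815 CPM in MUT libraries and 1541, 1618 and 1492 CPM in EV libraries (-0.88 ± 0.05, adjusted p 8.2e-07). PLAGL1, a zinc finger factor, had 816, 854 and 854 CPM in MUT libraries and 1396, 1446 and 1429 CPM in EV libraries (-0.76 ± 0.04), and MEG3, a long noncoding RNA of the DLK1 locus, had 1323, 1459 and 1469.7 CPM in MUT libraries and 2169, 2346 and 2223 CPM in EV libraries (-0.66 ± 0.05). No group overlapped the other in these genes. NNAT fell by 0.70 ± 0.05, and GNAS, which encodes the stimulatory G protein subunit, rose by 0.37 ± 0.04. Of 16 metallothionein and zinc transporter genes 9 rose (56.2%) and 2 fell, with the zinc exporter SLC30A1 at 0.75 ± 0.08 and the importers SLC39A14 at 0.39 ± 0.04 and SLC39A8 at -0.49 ± 0.08. Of 16 hypoxia targets 8 rose (50.0%) and 2 fell, with the oxygen-sensitive factor EPAS1 at 0.64 ± 0.04. Of 26 adhesion and surface genes 13 rose (50.0%) and 3 fell, with the integrins ITGA1 at 0.76 ± 0.05 and ITGB1 at 0.39 ± 0.05, the contactin CNTN1 at 0.62 ± 0.05 and the cadherin CDH22 at -0.77 ± 0.06.

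The WT libraries of batch 2 show which of these changes also set MUT apart from medium of cells that make normal CEL. In that comparison 6926 of 19992 genes passed (34.6%), 3385 higher (16.9%) and 3541 lower (17.7%). It shares the MUT libraries with the comparison against EV and is not independent of it. SLC38A2, at 1.21 ± 0.06, CDHR1, at 0.88 ± 0.06, SLC35F3, at 1.17 ± 0.06, GPX2, at 0.73 ± 0.08, and CD68, at -0.71 ± 0.04, were past the test against WT in the same direction as against EV. FOS, at -0.10 ± 0.10 (adjusted p 0.47), DUSP6, at -0.04 ± 0.04 (adjusted p 0.54), IGFBP5, at -0.02 ± 0.03 (adjusted p 0.76), and SCG2, at 0.00 ± 0.03 (adjusted p 0.93), were not past it. Of 20 tested ERK genes 7 were lower in MUT than in WT (against 17.7% of genes tested) and 2 higher, at a median of -0.15. ETV4, at -0.76 ± 0.07, and SPRY4, at -0.58 ± 0.06, were among those lower, the opposite of their direction against EV. MAFA, PDX1 and NKX6-1 were lower in MUT than in WT, at -0.53 ± 0.05, -0.43 ± 0.03 and -0.40 ± 0.04, and MANF was higher, at 0.39 ± 0.04.

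Batches 1 and 3 carried the same medium labels, with 7 MUT and 6 EV libraries. Whether their media came from the same preparations or HEK293 clones is not known here. Whether the change in batch 2 differed from the mean of the changes in batches 1 and 3 was tested in 1 fit over 19 libraries. Of 21577 genes 7697 passed (35.7%), 3788 with a higher change in batch 2 (17.6%) and 3909 with a lower one (18.1%), and of 9146 genes called within batch 2 and tested here 7059 passed (77.2%). SLC38A2 changed by 2.22 ± 0.05 in batch 2 alone and by 0.05 and -0.19 in batches 1 and 3, a difference of 2.30 ± 0.07 (edgeR adjusted p 4.6e-14). CDHR1 changed by -0.22 and 0.06 there (difference 2.76 ± 0.09), FOS by -0.33 and 0.02 (1.84 ± 0.22), and CD68 by 0.01 and 0.11 (-1.85 ± 0.06). INS, lower in MUT in batch 2, changed by -0.08 and 0.51 in batches 1 and 3 (difference -0.65 ± 0.11, edgeR adjusted p 1.9e-04). Lists differed between the batches as well. The replication list had medians of 0.02 and 0.06 in batches 1 and 3, and 35 of its 37 genes had a lower change in batch 2. ERK genes had medians of 0.06 and 0.02, and 14 of 20 had a higher change in batch 2. For ER chaperones the medians were 0.14 and -0.04, and 14 of 30 had a higher and 5 a lower change in batch 2, with HSPA5 at 0.22 and 0.01 and a difference of 0.08 ± 0.04 that did not pass (adjusted p 0.14). MANF, at 0.15 and 0.16, had a difference of 0.23 ± 0.05 (adjusted p 0.0013).

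**Figure D5:**
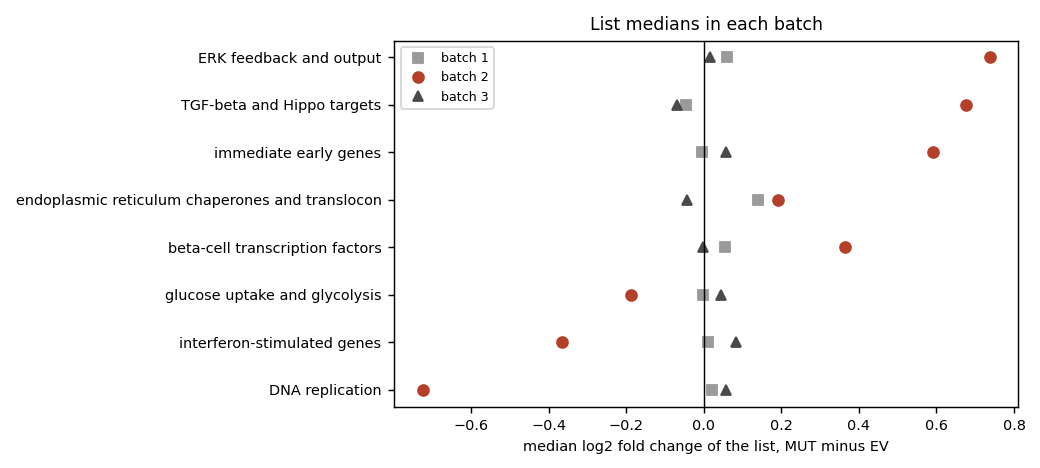
Median log2 fold change, MUT minus EV, of 8 gene lists in batch 1 (squares), batch 2 (circles) and batch 3 (triangles). In batch 2 the medians ran from -0.72 for DNA replication to 0.74 for ERK genes, and in batches 1 and 3 they lay between -0.07 and 0.14.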

How the data were processed

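RNA of EndoC-βH1 cells was sequenced, and the authors deposited a table of estimated counts per gene for 29 libraries, trimmed with fastp and quantified with kallisto per the submitters' processing notes. Versions, genome build, annotation and the use of strand in counting were not given in the sources used here. Estimated counts share out reads that fit several genes, so paralogs and overlapping genes are uncertain, and 941 tested entries repeat the counts of another entry. Counts were rounded. The 66025 entries were named by gene ID (42000 had a symbol, and entries without one held 3.57% of the counts). Positions are from GENCODE on GRCh38 and promoters from RefSeq on GRCh38.p14. Differences were tested with edgeR 4.0.16 (R 4.3.3; filterByExpr, TMM, quasi-likelihood F test, Benjamini-Hochberg over all genes tested, called at an adjusted p under 0.05), with 3 MUT and 3 EV libraries in the fit and 4 residual degrees of freedom. The same test gave MUT against WT, and a fit of 19 libraries gave the difference between batches. DESeq2 1.42.0, limma 3.58.1 voom, other scalings and filters, a test against a fold of 1.2, a replicate block and leaving out each library were alternatives. The procedure was tested on simulated counts. Same-numbered MUT and EV libraries correlated in their deviations from the group means (r of 0.497, 0.704 and 0.118 over 5000 genes for numbers 1, 2 and 3), although MUT library 3 correlated more with EV library 1 (0.26). The labelled numbers met the bar set for pairs (every r over 0.1). MUT library 1 with EV library 3 (0.109) met it too, so the bar cannot decide whether the numbers mark pairs. The fit behind the printed values has no block, and the block is an alternative. Replicates of a medium differed beyond counting error (chi-square per degree of freedom of 4.5 to 8.1). Library totals of 33.7 to 40.2 M limit the precision of weakly expressed genes. Genes named are the 12 highest and 12 lowest changes with a symbol, a mean of at least 5 CPM and no overlap, the 6 largest changes (of at least 5 CPM) and the 3 most abundant genes of each list, a short list of β-cell and stress genes, and the 8 highest and 8 lowest differences between batches. CPA1, the 1 acinar marker above 1 CPM, and the markers COL1A2, COL3A1, LUM, VWF and PTPRC were named after their values were seen. Members and lists were chosen with earlier results of these data known. Some results are not reported here.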

Additional observations from a re-analysis of the deposited data

Results flagged for a closer look

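The change between MUT and EV libraries in batch 2 differed from that in batches 1 and 3 for 7697 of 21577 genes (35.7%) in edgeR's test of the difference, among them 209 of the 221 genes named here. That count follows in part from the choice of genes, many of which were named for large changes in batch 2 and 16 for the difference itself. The values that follow are the change in batch 2 minus the mean change in the other batches, on the log2 scale, for the 8 genes with the highest and the 8 with the lowest such difference among those with a mean of at least 5 CPM. The difference was 3.03 for SLC35F3, 2.76 for CDHR1, 2.30 for SLC38A2, 1.99 for GPR161, a receptor of the primary cilium, 1.88 for the receptor tyrosine kinase ALK, 1.84 for FOS and 1.77 for SLC3A1. It was 1.82 for CRMA, an antisense RNA gene whose reads may not be told apart from those of its partner. On the low side it was -2.49 for SLC47A1, -2.22 for DRAIC, -2.12 for FER1L5, -2.05 for CYSLTR2, -1.85 for CD68, -1.81 for the cyclic AMP phosphodiesterase PDE8B, -1.80 for INSYN1-AS1, another antisense gene, and -1.80 for FAM156A, which has a near-identical copy. Within batch 2, GPR161 had 6.19, 5.31 and 5.43 CPM in MUT libraries and 1.32, 1.696 and 1.43 CPM in EV libraries (1.93 ± 0.13), and PDE8B had 2.83, 1.58 and 2.11 CPM in MUT libraries and 7.62, 8.14 and 7.32 CPM in EV libraries (-1.83 ± 0.17). Both genes separated the groups. Each batch held 1 set of libraries per medium, so a difference between batches and one between sets of libraries cannot be told apart.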

How the results depend on the processing

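Counts of called genes depended most on a minimum size of change. Tested against a fold of 1.2, 3666 genes differed between MUT and EV in batch 2 in place of 9150, 1542 between MUT and WT in place of 6926, and 3096 between batches in place of 7697. Of the 221 genes named here 39 lost their call of MUT against EV under that fold, among them HSPA5, HSP90B1, PDX1, NKX6-1, PCSK1, PCSK2, CHGA and ABCC8. DESeq2 called 7722 genes and limma voom 11046 in MUT against EV, and leaving out 1 library gave 7433 to 8488 calls, 5144 to 7199 against WT and 6659 to 7930 for the difference between batches. Scaled to library totals, 4062 genes were higher and 5029 lower. With the replicate number as a block 10331 genes were called in MUT against EV and 5783 in MUT against WT, and among the genes named here the block changed only the call of IAPP. The mitochondrial share differed by -0.134 to 0.148 percentage points when 1 library was left out. XBP1, which did not pass, changed sign scaled to totals (-0.00182), without MUT library 1 (-0.0236) and without EV library 2 (-0.00902), and FFAR1, which did not pass, did so without MUT library 3 (0.0151). Over all omissions of 1 library XBP1 ran from -0.0236 to 0.0726 and FFAR1 from -0.0684 to 0.0151. The cause was not tested. The list medians of NRF2 and antioxidant, mitochondrially encoded, ribosomal, proteasome, heat shock, other islet, progenitor, disallowed, acinar and duct genes changed sign under some alternative. The 6 libraries come from 1 batch with 3 libraries per medium, which is the main limit.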
